A study of Daphnia magna with 12 samples.

Results

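The genes described here were chosen by their measured levels, for opposite responses to a pair of organic chloride salts in the water flea Daphnia magna. Each had a control median of at least 2 CPM (read counts scaled so that libraries of different size can be compared), a C12mimCl median of at most 1/2 of the control median and a CholCl median of at least 2 times the control median. The rule added 0.1 CPM to each median before the ratios were taken and set no condition on C2mimCl. It found 123 genes among the 12752 with a control median of at least 2 CPM, and among 46334 gene rows in all. All 123 passed the count filter used for testing, but each had to be high after CholCl to be chosen.

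Neonates from brood 3, aged under 10 h at the start, spent 48 h unfed in medium with C12mimCl (1-dodecyl-3-methylimidazolium chloride, named in the labels as 1-dodecyl chloride-3-methylimidazolium), with CholCl (cholinium chloride), with C2mimCl (1-ethyl-3-methylimidazolium chloride), or in blank ASTM medium as the control. The dose of each salt was its EC20, a concentration that gives 20% of an effect, so the salts are matched by effect and their concentrations are not known here. Each group had 3 libraries, and each library held whole-body RNA of 90 animals that were still active, pooled from a vessel of its own. The vessels were filled from the same cultures. The libraries held between 12502019 and 15539051 reads in genes. Reads that the counting assigned to no feature were 8.11% to 10.1% of each C12mimCl library, 5.25% to 5.83% of each CholCl library, 5.83% to 7.61% of each C2mimCl library and 6.32% to 8.39% of each control library. These shares move with the levels given below, and their part in those levels was tested only for C2mimCl against control. C2mimCl replicate 1 stood apart from the other libraries of its group, and the main C2mimCl counts and calls are given with and without it.

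Imidazolium salts with a long alkyl chain have a charged head and an oily tail, as surfactants do, and such molecules are known to insert into cell membranes. The ethyl salt carries the same ring without the long tail. Cholinium is a quaternary ammonium ion that animals use to build phosphatidylcholine, the main lipid of many membranes, and that also serves as a precursor of the transmitter acetylcholine and of the osmolyte betaine. The files identify genes by number and pair none with a name, so no function is given to any gene below.

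C12mimCl and CholCl against control chose the members, so their values are a description without a test. The median member stood at 0.329 of its control level after C12mimCl and at 2.66 times its control level after CholCl. The range over members was 0.014 to 0.499 after C12mimCl and 2.01 to 72.7 times after CholCl. Between the salts the median member differed 9.64-fold, with a range of 4.12-fold to 213-fold. The fall was larger than the rise on the log2 scale for 76 members, and the rise was larger for 47. A fall of at least 4-fold was seen in 35 members and a rise of at least 4-fold in 21, with both in 5. In whole-body RNA, fewer cells of a type and less RNA per cell cannot be told apart.

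**Figure D1:**
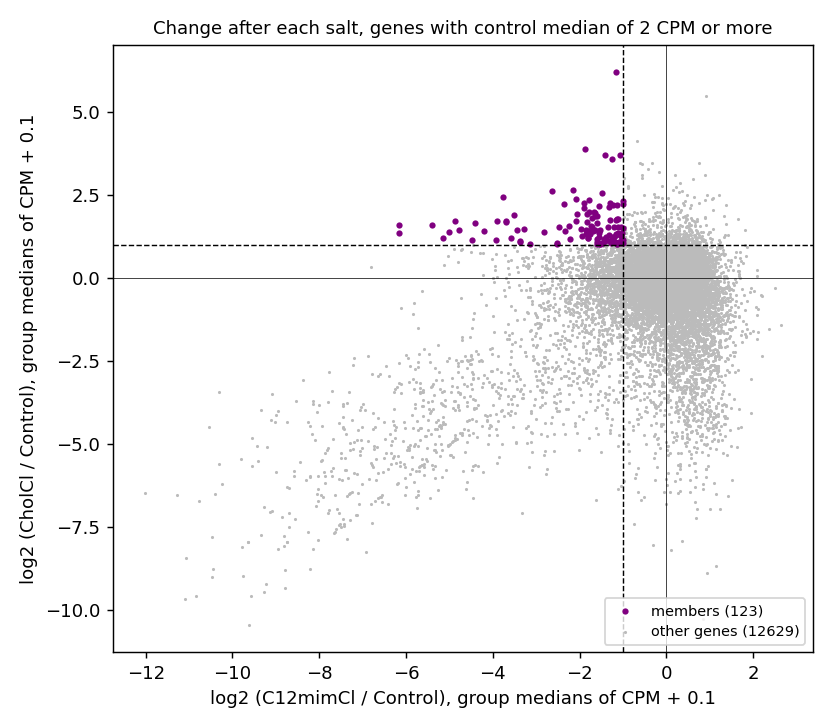
Each point is a gene with a control median of at least 2 CPM, placed by the log2 ratio of C12mimCl to control (x axis) and of CholCl to control (y axis), both from group medians of CPM plus 0.1. The 123 members (purple) fill the quadrant beyond the dashed limits, from 2.01 to 72.7 times control after CholCl.

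The members were 5.65% of the 2178 genes at or below 1/2 of control after C12mimCl, close to the 4.77% of all genes over 2 CPM that were at least doubled after CholCl. They were 20.2% of those 608 doubled genes, against 17.1% of all genes that were at or below 1/2 of control after C12mimCl. The mirror image, doubled after C12mimCl and halved after CholCl, held 284 genes. Another 970 genes were halved after both salts and 18 were doubled after both. Just inside the C12mimCl limit were Dapma7bEVm001975, Dapma7bEVm001091 and Dapma7bEVm000020 at 0.4995, 0.4984 and 0.4977 of control, and just outside it Dapma7bEVm018615, Dapma7bEVm004914 and Dapma7bEVm010456 at 0.5026, 0.5032 and 0.504. Just inside the CholCl limit were Dapma7bEVm011669, Dapma7bEVm013344 and Dapma7bEVm002606 at 2.011, 2.013 and 2.021 times control, and just outside it Dapma7bEVm000467, Dapma7bEVm002544 and Dapma7bEVm018587 at 1.998, 1.992 and 1.985. The genes on either side of each limit therefore had nearly the same values.

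The members covered a wide span of abundance. Control medians ran from 2.12 to 1407 CPM with a median of 16.3 CPM. There were 50 members under 10 CPM, 51 from 10 to 100 CPM and 22 at 100 CPM or more. These bands held 40.7%, 41.5% and 17.9% of members, against 32.5%, 54.8% and 12.7% of all genes over 2 CPM. The median ratio to control hardly differed between the bands, at 0.293, 0.345 and 0.321 after C12mimCl and 2.74, 2.66 and 2.46 after CholCl. Together the members took 0.312% to 0.379% of the reads in genes in C12mimCl libraries, 2.908% to 3.005% in CholCl libraries, 0.836% to 1.31% in C2mimCl libraries and 0.886% to 1.11% in controls. In CholCl replicate 2 the 95% Wilson interval of this share ran from 2.995% to 3.014%, which covers counting error only.

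All 3 CholCl libraries lay above all 3 controls in all 123 members, against 25.2% of the 15847 genes tested. All 3 C12mimCl libraries lay below all 3 controls in 113 members, against 27.8% of genes tested. Both counts come from the libraries that the rule used, and nothing is read from them. Replicates were closest after CholCl, where the highest library was a median of 1.17 times the lowest (1.23 over all genes above 2 CPM). That ratio was 1.63 after C12mimCl (1.28 over all genes), 1.97 after C2mimCl (1.54) and 1.45 in controls (1.39). Each value had 0.1 CPM added before these ratios. Members had to be high after CholCl and low after C12mimCl, so counting error differs between those groups by construction. Nothing is read from the order of the groups.

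**Figure D2:**
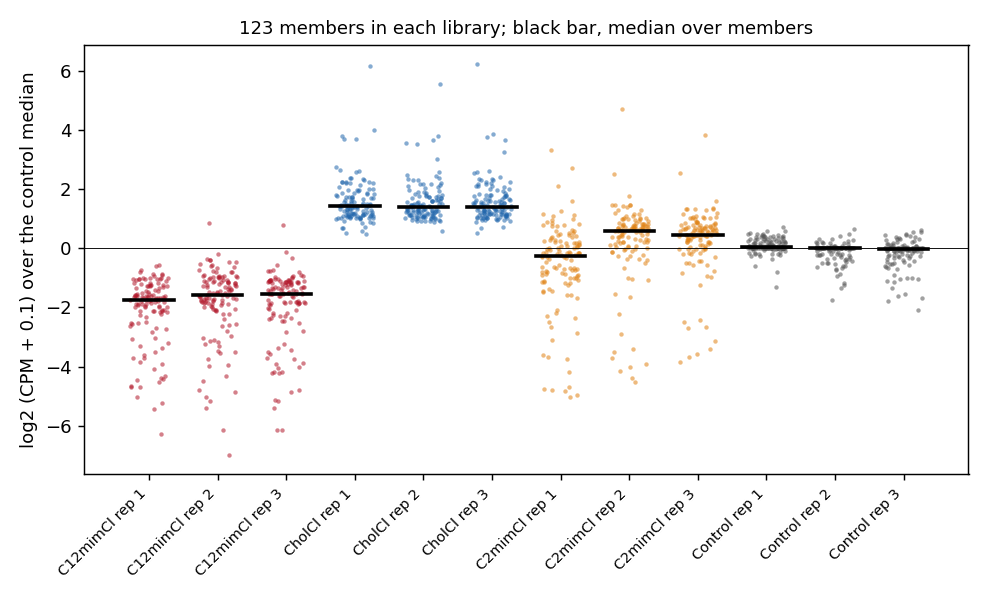
The 123 members in each of the 12 libraries, as log2 of CPM plus 0.1 over the control median (y axis); points are members and black bars the median over members. The bars lie at -1.76 to -1.53 after C12mimCl, at 1.40 to 1.43 after CholCl, and at -0.26, 0.60 and 0.46 in C2mimCl replicates 1, 2 and 3.

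The member with the highest control CPM, a scale that does not correct for gene length, was Dapma7bEVm018555. It had 585, 643 and 694 CPM after C12mimCl, 2811, 2936 and 3108 CPM after CholCl, 795, 1854 and 1954 CPM after C2mimCl, and 1407, 975 and 1425 CPM in controls. The C12mimCl and CholCl libraries each lay apart from the controls, and C2mimCl replicate 1 lay below the controls while the other C2mimCl libraries lay above them. Among the 8 members with the highest control CPM, Dapma7bEVm011004 had the widest difference between CholCl and C12mimCl, with 116, 175 and 148 CPM after C12mimCl, 3544, 2599 and 3882 CPM after CholCl, 335, 1341 and 1183 CPM after C2mimCl, and 762, 697 and 1120 CPM in controls. Here too the C12mimCl and CholCl libraries lay apart from the controls, and C2mimCl replicate 1 lay below them while replicates 2 and 3 lay above them.

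Dapma7bEVm003754 had 126, 144 and 130 CPM after C12mimCl, 1274, 1096 and 1199 CPM after CholCl, 251, 727 and 672 CPM after C2mimCl, and 465, 344 and 459 CPM in controls. Dapma7bEVm001116, Dapma7bEVm003213 and Dapma7bEVm010799 had the same order of groups, with ratios to control of 0.286, 0.371 and 0.26 after C12mimCl and 2.3, 2.23 and 2.41 after CholCl. Dapma7bEVm002330 was an exception in its spread, since C12mimCl replicate 3, at 422 CPM, exceeded control replicate 2, at 336 CPM. Dapma7bEVm007743 was the 1 member of the 8 most abundant whose C2mimCl libraries, at 251, 262 and 231 CPM, had a median below that of the controls, at 309, 324 and 257 CPM.

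Ranked by the smaller of fall and rise, the strongest member was Dapma7bEVm027424. It had 0.252, 0.302 and 0.456 CPM after C12mimCl, 15.1, 20.2 and 14.9 CPM after CholCl, 3.36, 1.49 and 2.11 CPM after C2mimCl, and 2.41, 1.85 and 2.44 CPM in controls. Its C12mimCl values rest on 14 reads in all, against 98 reads in controls. Dapma7bEVm006431, the next, had 2.71, 4.61 and 2.89 CPM after C12mimCl, 249, 186 and 216 CPM after CholCl, 46.5, 64.7 and 54.5 CPM after C2mimCl, and 48.9, 40.3 and 26.0 CPM in controls. For both genes C12mimCl and CholCl were far apart, and the C2mimCl libraries overlapped the controls. Dapma7bEVm009611, Dapma7bEVm007211 and Dapma7bEVm015125 stood at 0.223, 0.239 and 0.269 of control after C12mimCl and 6.19, 3.82 and 4.24 times control after CholCl. In each of them C2mimCl replicate 1 lay below every control and replicates 2 and 3 above every control. Without C2mimCl replicate 1, Dapma7bEVm007211 and Dapma7bEVm015125 were called higher (edgeR quasi-likelihood, BH-adjusted p = 0.0175 and 0.0016). Dapma7bEVm009611 was not called in that fit (adjusted p = 0.0766). Dapma7bEVm010955 was low after C12mimCl in the median only, since its C12mimCl libraries stood at 4.23, 4.23 and 31.4 CPM and its controls at 17.6, 18.2 and 27 CPM.

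Dapma7bEVm029490 had the highest ratio of CholCl to control, 72.7, with 161, 105 and 167 CPM after CholCl and 2.1, 2.12 and 3 CPM in controls. Its low C12mimCl median rests on 2 libraries, since C12mimCl replicates 1, 2 and 3 had 0.883, 3.93 and 0.304 CPM and replicate 2 lay above every control. Only 4 other members were at least 8 times control after CholCl. They were chosen for naming after their values were seen: Dapma7bEVm001926, Dapma7bEVm018485, Dapma7bEVm003956 and Dapma7bEVm003686, at 14.7, 12.9, 12.8 and 11.9 times.

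**Figure D3:**
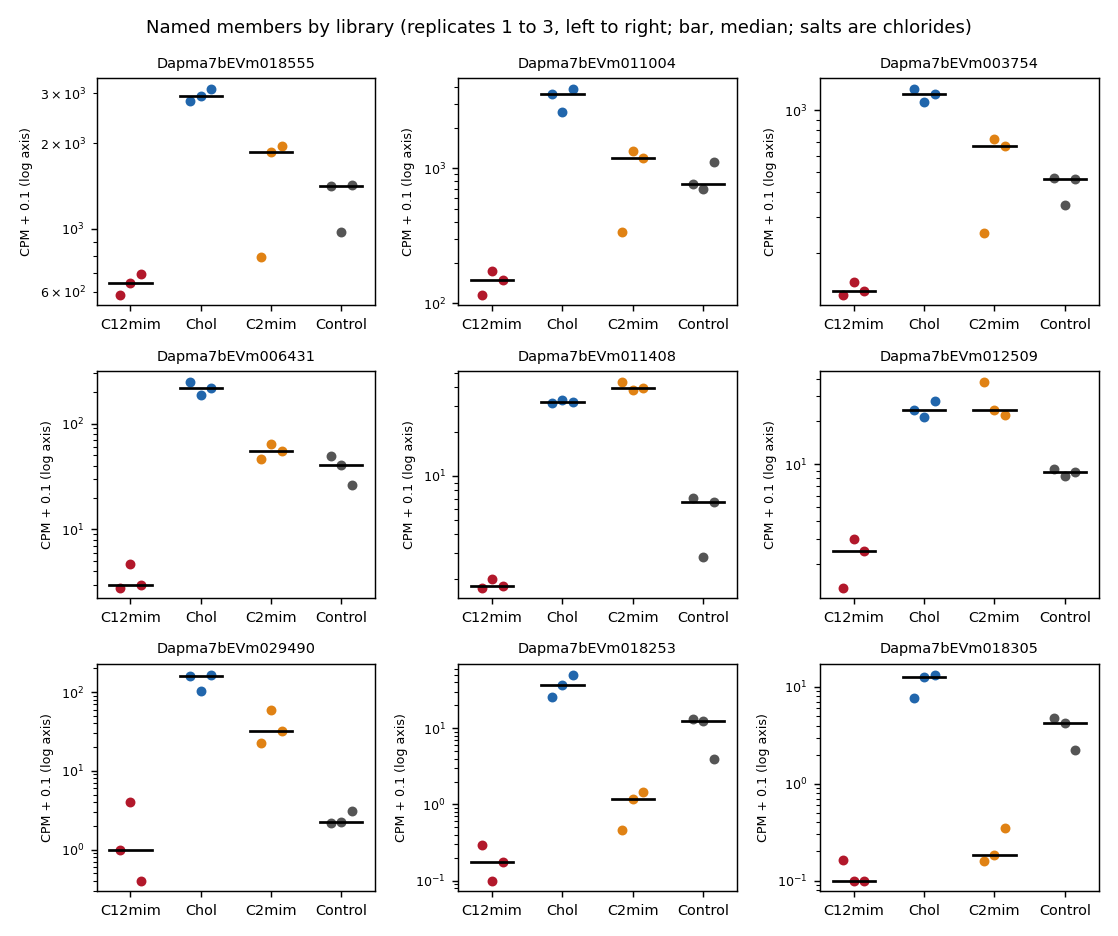
CPM plus 0.1 of 9 named members in each library (log y axes), with groups along the x axis in the order C12mimCl, CholCl, C2mimCl and control; points are replicates 1 to 3 from left to right and bars are medians. Dapma7bEVm011408 is as high after C2mimCl as after CholCl, whereas Dapma7bEVm018253 and Dapma7bEVm018305 are near 0 after both imidazolium salts.

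C2mimCl against control is the comparison that the rule did not use, although the control libraries are shared with it. It asks what the imidazolium salt with the short chain did to genes that were lowered after the long-chain salt and also raised after CholCl. The members were 5.65% of the 2178 genes lowered after C12mimCl, so they do not stand for those genes as a whole. Over the members the median log2 fold change of C2mimCl over control was 0.29, against 0.0075 over all genes tested, and 89 of the 123 members were above 0, against 50.8% of all genes. Of the 123 members, 6 rose and 6 fell in edgeR's quasi-likelihood test (Benjamini-Hochberg, BH, adjusted p below 0.05 over 15847 genes), or 4.88% each way. Over all genes tested 0.776% were called higher and 0.656% lower. At an unadjusted p below 0.05, 30 members were higher and 12 lower (24.4% and 9.76%), against 7.64% and 9.35% of all genes. A 95% interval wholly within 2-fold of control was found for 38 members, against 54.9% of all genes. The interval of 73 members crossed a 2-fold limit, as did that of 7003 of the 15847 genes tested. It lay wholly beyond 2-fold lower in 9 members and wholly beyond 2-fold higher in 3.

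These counts rest on single libraries. Without C2mimCl replicate 1, 38 members were higher and 12 lower, against 5.75% and 9.33% of the genes tested in that fit, and the median log2 fold change of the members was 0.57. In that fit 97 members (78.9%) had a log2 fold change above 0, against 48.1% of all genes. At an unadjusted p below 0.05, 57 members were higher and 17 lower (46.3% and 13.8%), against 13.4% and 17.7% of all genes, and 37 members (30.1%) had an interval within 2-fold, against 50.2%. The 12 members called with all libraries were called in it too. Without C2mimCl replicate 2 the counts were 2 and 2, against 0.369% and 0.135% of all genes. Without replicate 3 they were 2 and 4, against 0.252% and 0.135%. Without control replicate 1 or 2 they were 1 and 1, against 0.0986% and 0.111%, and 0.0741% and 0.0679%. Without control replicate 3 they were 1 and 6, against 0.289% and 0.271%. The shares called over all genes thus fell as well in each of these fits. With the percentage of reads assigned to no feature as a covariate, 9 were higher and 7 lower, against 1.72% and 2.23% of all genes, and the median of the members was 0.05, against -0.02 over all genes. In the fit of the 6 libraries compared, edgeR called 0 of 122 members tested, with 33 at an unadjusted p below 0.05. Only 3 of all 14859 genes tested were called in that fit, so its count cannot set members apart from other genes. DESeq2 on all libraries called 19 members higher and 10 lower, against 2.24% and 2.11% of the genes it was given.

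**Figure D4:**
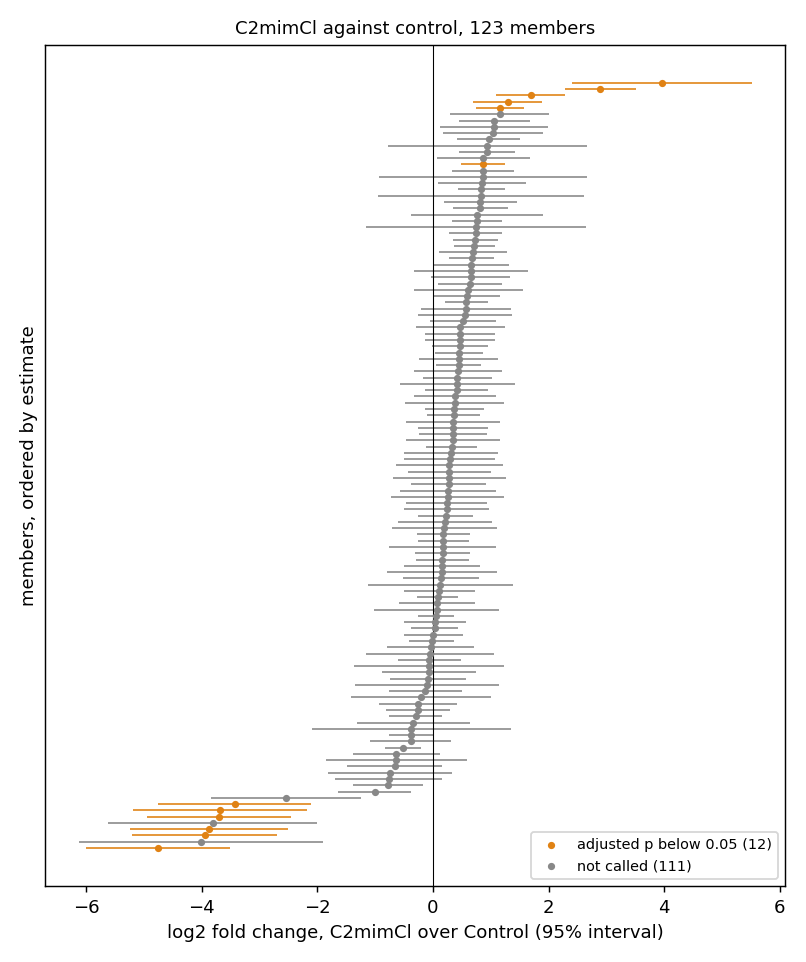
Log2 fold change of C2mimCl over control with its 95% interval (x axis) for the 123 members, ordered by estimate, from edgeR's quasi-likelihood fit of all 12 libraries. The 12 members called are orange, with 6 below 0 at the bottom and 6 above 0 towards the top.

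Among the members that rose after C2mimCl, Dapma7bEVm011408 had the smallest p. It had 1.64, 1.89 and 1.67 CPM after C12mimCl, 31.2, 32.9 and 31.6 CPM after CholCl, 43.6, 38.3 and 39.2 CPM after C2mimCl, and 6.97, 2.71 and 6.54 CPM in controls. No group overlapped another, and it was the 1 member whose C2mimCl median exceeded its CholCl median. Its log2 fold change of C2mimCl over control was 2.90 (SE 0.28, edgeR quasi-likelihood, BH-adjusted p = 0.00207). The call was kept in 18 of 19 other fits and lost in the fit of the 6 libraries compared (adjusted p = 0.122).

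Dapma7bEVm012509 had 1.26, 2.87 and 2.36 CPM after C12mimCl, 23.9, 21.5 and 27.9 CPM after CholCl, 38, 23.8 and 22.3 CPM after C2mimCl, and 9.13, 8.13 and 8.75 CPM in controls. C2mimCl and CholCl overlapped, and both lay above the controls. Its log2 fold change after C2mimCl was 1.69 (SE 0.27, edgeR quasi-likelihood, BH-adjusted p = 0.0206). The call was lost when any 1 of the controls was left out (highest adjusted p over the other fits 0.155).

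Dapma7bEVm011158 had 12.8, 14.6 and 15.7 CPM after C2mimCl and 7.09, 6.87 and 5.28 CPM in controls, a change of 1.16 on the log2 scale (SE 0.19, edgeR quasi-likelihood, BH-adjusted p = 0.0206). Dapma7bEVm029490 had 22.4, 58.4 and 31.6 CPM after C2mimCl, every one above the controls given above, and a change of 3.96 on the log2 scale (SE 0.70, edgeR quasi-likelihood, BH-adjusted p = 0.0265). Both calls were lost without C2mimCl replicate 2 or 3 and without any 1 of the controls, with adjusted p up to 0.0817 and 0.123. Both were also lost in the fit of the 6 libraries compared (adjusted p = 0.185 and 0.105). Dapma7bEVm029490 lost the call with no count filter too (adjusted p = 0.0509). The other members called higher were Dapma7bEVm027650 and Dapma7bEVm003686, at 0.87 and 1.30 (edgeR quasi-likelihood, BH-adjusted p = 0.0376 and 0.0465). These were kept in 7 and 9 of 19 other fits, the fewest of the 12 calls. Without CholCl replicate 1, 2 or 3 neither was called, although those libraries enter this comparison only through the shared estimate of spread, the scaling and the count filter.

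The 6 members that fell after C2mimCl belonged to a set of 8 whose C12mimCl and C2mimCl medians were both at most 1/8 of control: Dapma7bEVm018253, Dapma7bEVm019956, Dapma7bEVm017393, Dapma7bEVm018305, Dapma7bEVm021397, Dapma7bEVm020817, Dapma7bEVm020072 and Dapma7bEVm020638. This set was drawn after the values were seen and has no test of its own. No C12mimCl library held more than 5 reads of any of them and no C2mimCl library more than 16. CholCl libraries held at least 51 reads and controls at least 7. Their CholCl medians were 2.31 to 3.27 times control.

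Dapma7bEVm018253, the most abundant of the 8, had 3, 0 and 1 reads after C12mimCl, 348, 543 and 634 after CholCl, 6, 13 and 16 after C2mimCl, and 211, 189 and 49 in controls. C2mimCl lay far below the controls, and control replicate 3 lay well below the other controls. Its log2 fold change after C2mimCl was -3.43 (SE 0.60, edgeR quasi-likelihood, BH-adjusted p = 0.0256). Dapma7bEVm018305 had 1, 0 and 0 reads after C12mimCl, 102, 183 and 167 after CholCl, 1, 1 and 3 after C2mimCl, and 75, 62 and 27 in controls. Its log2 fold change after C2mimCl was -4.76 (SE 0.56, edgeR quasi-likelihood, BH-adjusted p = 0.00607), and it was called in 18 of 19 other fits. With the single C12mimCl read of that gene, the ratio of control to C12mimCl reads, pooled by group and scaled by library size only, was 163. The 95% counting interval of that ratio was 28.9 to 6480. By group medians plus 0.1 CPM, the measure used elsewhere, the gene stood at 0.024 of control after C12mimCl.

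Dapma7bEVm019956, Dapma7bEVm017393, Dapma7bEVm021397 and Dapma7bEVm020072 also fell after C2mimCl, with log2 fold changes of -3.95, -3.70, -3.87 and -3.68 (edgeR quasi-likelihood, BH-adjusted p = 0.0146, 0.0157, 0.0206 and 0.0294). These 4 and Dapma7bEVm018253 were not called without control replicate 1 or control replicate 2 (highest adjusted p 0.194, 0.185, 0.173, 0.216 and 0.216 over the other fits). All but Dapma7bEVm017393 also lost the call without C2mimCl replicate 2, and Dapma7bEVm018253, Dapma7bEVm017393 and Dapma7bEVm021397 without C2mimCl replicate 3. Dapma7bEVm020817 and Dapma7bEVm020638 had log2 fold changes of -3.81 and -4.02 and were not called (edgeR quasi-likelihood, BH-adjusted p = 0.0515 and 0.0687), but both were called lower without C2mimCl replicate 1 (adjusted p = 0.0213 and 0.0468).

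The 8 genes also varied together within the control and CholCl groups. Control replicate 3 was the lowest control for all 8, at 0.185 to 0.488 of the mean of the other controls, against a median of 0.93 for the other members. CholCl replicate 1 was the lowest CholCl library for all 8. It stood at 0.449 to 0.653 of the mean of the others, against a median of 1.04 for the other members. Control replicate 3 was the lowest control in 50.4% of all members and 41.1% of all genes over 2 CPM. For CholCl replicate 1 these shares were 23.6% and 31.3%. Of all genes over 2 CPM, 21 were at most 1/8 of control after both imidazolium salts. These were the 8 members, 1 gene within 2-fold of control after CholCl, and 12 genes at or below 1/2 of control after CholCl, of which 11 were at or below 1/8. The remaining 4 members at or below 1/2 of control after C2mimCl were Dapma7bEVm022501, Dapma7bEVm002578, Dapma7bEVm006573 and Dapma7bEVm015569, at 0.156, 0.428, 0.483 and 0.495. None of them was called with all libraries, and without C2mimCl replicate 1 Dapma7bEVm022501 and Dapma7bEVm002578 were called lower (edgeR quasi-likelihood, BH-adjusted p = 0.0279 and 0.00702).

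By the group median, the larger part of the members had a C2mimCl level on the CholCl side of control. Replicate 1 alone lay above all 3 controls in 33 members and below them in 65, against 32% and 35.4% of all genes. In the fit of all 12 libraries 72.4% of members were above 0, against 50.8% of all genes. With the percentage of reads assigned to no feature as a covariate, the median log2 fold change was 0.05, against -0.02 over all genes. The C2mimCl median lay between the control and CholCl medians in 90 members, between the C12mimCl and control medians in 31, above CholCl in 1 and below C12mimCl in 1. Without C2mimCl replicate 1 these counts were 93, 26, 2 and 2. It was at least 2 times control in 16 members, within 2-fold in 95 and at most 1/2 in 12, against 2.9%, 86.9% and 10.2% of all genes over 2 CPM. Without that library the counts were 20, 92 and 11, against 4.19%, 84.7% and 11.1%. Among the 16 were Dapma7bEVm001926, with 90.2, 268 and 241 CPM after C2mimCl and 112, 61.3 and 96.6 CPM in controls, and Dapma7bEVm000442, with 27.2, 36.4 and 39.5 CPM after C2mimCl and 22, 15.7 and 15.1 CPM in controls. Neither was called (edgeR quasi-likelihood, BH-adjusted p = 0.159 and 0.084). Both were called without C2mimCl replicate 1 (adjusted p = 0.00648 and 0.00903).

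C2mimCl replicate 1 differed from the other C2mimCl libraries in many members. It was the lowest of the 3 in 93 members (75.6%), against 43.5% of all genes over 2 CPM. It lay below all 3 controls in 65 members, within their range in 25 and above in 33, against 35.4%, 32.6% and 32% of all genes. Replicates 2 and 3 each lay above all controls in 82 members, against 32% and 30.4% of all genes. They lay below in 20 and 19, against 32.5% and 31.1%. In 38 members (30.9%), replicate 1 was below and replicates 2 and 3 above every control, against 8.71% of all genes. Reads assigned to no feature were 7.61% of replicate 1, within the control range of 6.32% to 8.39%. They were 5.83% and 6.14% of replicates 2 and 3, below every control.

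Dapma7bEVm024465 had the lowest ratio of replicate 1 to the others, with 0.305, 15 and 8.68 CPM after C2mimCl and 5.3, 2.05 and 6.94 CPM in controls. Its C12mimCl libraries were at 0.315, 0.378 and 0.228 CPM, so replicate 1 stood at the C12mimCl level. Dapma7bEVm018529 had the same form, with 0.427, 9.18 and 9.44 CPM after C2mimCl and 3.7, 1.59 and 4.57 CPM in controls. Dapma7bEVm005563 went the other way, with 18, 4.96 and 5.39 CPM after C2mimCl and 15.6, 10 and 10.4 CPM in controls. The ratio of replicate 1 to the mean of replicates 2 and 3 was at most 1/2 in 46 members (37.4%) and at least 2 in 3 (2.44%), against 12.4% and 13.2% of all genes over 2 CPM.

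**Figure D5:**
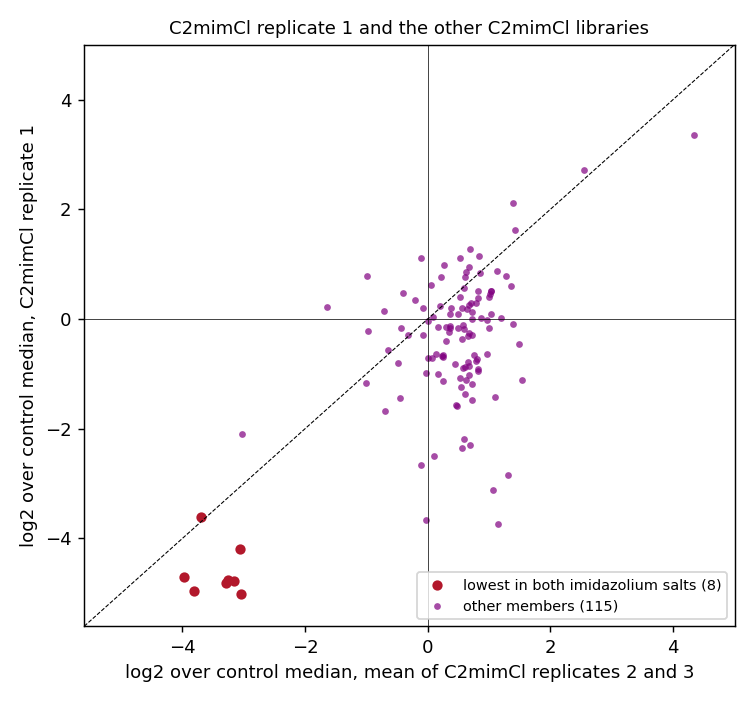
Log2 level over the control median in C2mimCl replicate 1 (y axis) against the mean of C2mimCl replicates 2 and 3 (x axis) for the 123 members; the dashed line marks equal levels. Replicate 1 was at most 1/2 of the other libraries' mean in 46 members, which lie below the line, and the 8 members low after both imidazolium salts (red) sit at the lower left.

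The same library also differed from its group outside the members. Its median ratio to the mean of replicates 2 and 3 was 0.602 over members, 1.01 over all genes over 2 CPM, 0.293 over the 970 genes halved after both C12mimCl and CholCl, and 0.869 over the 1085 halved after C12mimCl and within 2-fold after CholCl. It was 0.698 over the 467 genes doubled after CholCl and within 2-fold after C12mimCl, and 2.51 over the 284 genes of the mirror image. The median log2 fold change after C2mimCl was 0.29 for members, 0.25, 0.08 and 0.29 for the first 3 of these classes in the same order, and -0.96 for the mirror image. Without replicate 1 these medians were 0.57, 0.59, 0.14, 0.47 and -1.58. Rises called after C2mimCl were 4.88% of members, 0.309% of the genes halved after both, 0.461% of those halved after C12mimCl only and 6.21% of those doubled after CholCl only. Falls called were 4.88% of members, 1.65% of the genes halved after both and 4.23% of the mirror image. In edgeR 0 falls were called among genes halved after C12mimCl only and 0 among those doubled after CholCl only, with 31 and 16 lower at an unadjusted p below 0.05 and 5 and 1 called lower by DESeq2. No rise (0) was called by edgeR or DESeq2 in the mirror image, where 2 genes were higher at an unadjusted p below 0.05. Without replicate 1, rises were 30.9% of members, 9.28% of the genes halved after both, 8.48% of those halved after C12mimCl only and 28.3% of those doubled after CholCl only. Falls were then 9.76% of members, 6.7%, 0.737% and 2.57% of the same 3 classes, and 59.2% of the mirror image. These classes were cut on the same control libraries and the differences between them were not tested.

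Vessel-to-vessel spread among controls also differed between members. Dapma7bEVm014690, Dapma7bEVm023619 and Dapma7bEVm015125 were the steadiest, with a ratio of highest to lowest control of 1.04, 1.04 and 1.07. The widest were Dapma7bEVm020638, Dapma7bEVm015732 and Dapma7bEVm019956, at 5.22, 3.7 and 3.51. All these ratios were taken after 0.1 CPM was added to each value. The lowest control of Dapma7bEVm020638 held 7 reads, so counting error is part of its ratio. Dapma7bEVm014690 had 5.5, 5.38 and 4.38 CPM after C2mimCl and 3.27, 3.17 and 3.15 CPM in controls, with no overlap, and was not called (log2 fold change 0.67, edgeR quasi-likelihood, BH-adjusted p = 0.091, and 0.0567 without C2mimCl replicate 1). All 3 C2mimCl libraries lay above all 3 controls in 22 members and below in 13, against 8.29% and 9.72% of genes tested. C2mimCl replicates 2 and 3 alone lay above all controls in 77 members and below in 17, against 22.7% and 24.9%.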

How the data were processed

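Whole-body RNA of Daphnia magna was sequenced in 12 libraries as 150 bp paired-end reads from a stranded mRNA kit, per the labels' protocols. The deposited files hold raw read counts per gene, made with Trimmomatic 0.39, STAR 2.7.3a and HTSeq, per the submitters' processing notes. For build, annotation and strand setting nothing is stated in the labels, so overlapping, antisense and near-identical genes are uncertain. Reads without a unique position were 7.79% to 10% of each library. Summary lines stayed out of all totals. None of the identifiers (0 matched) is in the reference table of 28335 genes (ASM2063170v1.1), so no gene lists and no sequences were used.

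CPM used TMM factors over rows with at least 10 reads. The control minimum was read on the median itself. For C2mimCl against control, counts were fitted in edgeR 4.0.16 (R 4.3.3) with filterByExpr (minimum count 10), TMM, a robust quasi-likelihood model of all 12 libraries and 1 mean per group. SEs come from the fold change and its F statistic. DESeq2 1.42.0 was an alternative. The fit was tested on simulated data. Replicates differed by at least 15.9 times sampling noise (chi-square per degree of freedom), so each library counts once. P-values measure the spread between vessels of shared cultures.

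Named were the 8 most abundant members in controls, the 8 with the largest smaller change, up to 4 called in each direction for C2mimCl, those next to each limit and those with the widest and narrowest controls. Any other gene named was picked with its values in view. Members and lists were chosen with earlier results of these data known.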

Additional observations from a re-analysis of the deposited data

How the results depend on the processing

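The number of members was 115 to 150 without each library in turn, of which 97 to 123 were among the 123. It was 137, 160 and 124 with RLE, upper-quartile and library-size scaling (115, 91 and 106 shared), 95 with 1 CPM added and 125 with means. A control minimum of 10 CPM gave 73 and a limit of 4-fold 5, by construction. With upper-quartile scaling the median log2 ratio of all genes over 2 CPM moved from -0.04 to 0.18 after C12mimCl. After CholCl it moved from -0.14 to 0.15. With each scaling all 123 stayed below control after C12mimCl and above it after CholCl. The rule made this nearly certain, since each member lay at least 2-fold from control after both salts, and nothing is read from it.

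For C2mimCl against control, 6 members were called higher and 6 lower, against 0.776% and 0.656% of all genes. These counts were 10 and 6 with upper-quartile scaling (1.04% and 0.581% of all genes) and 19 and 10 with DESeq2 (2.24% and 2.11%). With the 6 libraries compared they were 0 and 0 (0.00673% and 0.0135%), with 33 members at an unadjusted p below 0.05 in edgeR. The cause was not tested. Without each library in turn they ran from 1 to 38 higher and from 1 to 12 lower, while 23 to 2445 of all genes were called. The median log2 fold change of the members was then 0.19 to 0.57. RLE factors gave 6 and 6 (0.846% and 0.587% of all genes), and no count filter 5 and 6 (0.423% and 0.36%). No alternative turned the direction of the median or of any of the 12 called members. Correlations of C2mimCl and control deviations were 0.192, -0.406 and 0.426 for replicate numbers 1 to 3. Over all pairs of groups they ran from -0.119 to 0.192 for number 1 and from -0.406 to 0.195 for number 2. For number 3 all were positive, at 0.152 to 0.426. Whether samples with the same number share a factor was not tested. With the number as a block 5 members were higher and 4 lower (0.549% and 0.764% of all genes), median 0.25. At this depth the C12mimCl values of 21 members rest on 30 reads or fewer over the group.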
